A study of Mus musculus with 16 samples.

Results

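Fgf8b was compared with control in preadipocytes of inguinal white fat, the subcutaneous storage depot of the mouse groin. The comparison rests on 8 of the 16 RNA sequencing libraries of the series, chosen by their labels alone, which give the depot and name each library either fgf or ctrl with a number. Controls are libraries 1, 3, 5 and 7, and Fgf8b libraries are 2, 4, 6 and 8. All 8 come from primary cells of the stromal-vascular fraction, the part of digested fat tissue without the floating adipocytes, taken from C57BL/6N mice with a UCP1 reporter. The sources used here do not give the dose, the time of exposure, the composition of the control, or the sex and age of the mice. The design text counts 3 independent cultures where each group has 4 libraries, and no label says which libraries share a culture. The p-values below therefore measure the spread between these libraries, much of which may be technical. Between libraries of the same group, the spread of reads recovered from the values was close to that of counting alone. Its chi-square per degree of freedom was 1.12 to 1.33 over entries with moderate reads, where counting alone gives about 1.

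Fgf8b is a splice form of the secreted fibroblast growth factor FGF8. It binds FGF receptor tyrosine kinases together with heparan sulfate, a sulfated sugar chain on cell-surface and matrix proteins that serves as a co-receptor, and the activated receptor signals through RAS, RAF, MEK and the ERK kinases. ERK induces its own inhibitors, such as the dual-specificity phosphatases and the Sprouty proteins, and transcription factors of the ETS and AP-1 families. In fat tissue, preadipocytes are the mesenchymal precursors that can turn into adipocytes, and several subtypes of them are told apart by surface proteins.

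A gene's level is given here as summed RPKM: reads per kilobase of the entry and scaled to library size, added over all entries of the deposited table that carry the gene's symbol. A read that falls in overlapping entries is counted in each of them, so these levels can be compared between libraries for 1 gene but not between genes. Changes are log2 differences, Fgf8b minus control, of the summed RPKM plus a pseudocount of 0.5, with their standard error (SE). A gene was called when limma's test gave a Benjamini-Hochberg adjusted p under 0.05 over all 14590 genes tested. Depth recovered from the values was 15640000 to 20128000 reads per library, and 1 read on an entry of 2 kb was worth 0.0248 to 0.0320 RPKM.

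Most genes differed between Fgf8b and control by a little, and a small share of them by a lot. Of the genes tested, 10274 (70.4%) were called, 5722 higher (39.2%) and 4552 lower (31.2%), and in 64.6% of all genes the 4 control and the 4 Fgf8b values did not overlap. Among the called genes 3455 changed by less than 1.25-fold. At least 2-fold changes were fewer: 656 genes rose (4.5%) and 1083 fell (7.42%), together 11.9% of the genes tested. Past 8-fold, 43 genes rose and 114 fell. Counts in gene lists are to be read against these shares of all genes. Of the calls 55.7% were higher on the deposited scale and 50.6% after median-of-ratios scaling between libraries, and the median change over all genes was 0.04 and -0.00046. The first principal component held 88.8% of the variance and separated the groups, and the second held 2.24%, with Fgf8b libraries 2 and 8 at its ends.

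**Figure D1:**
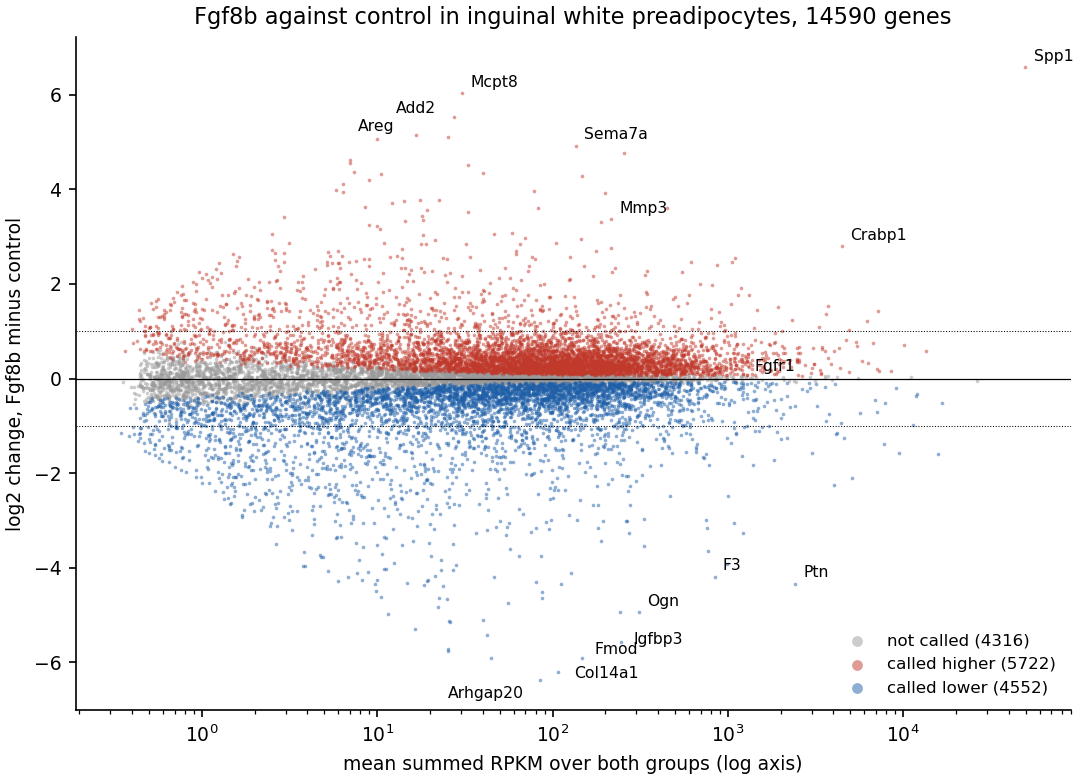
Each point is 1 of 14590 genes, with the mean summed RPKM over both groups on a log axis and the log2 change, Fgf8b minus control, on the other; dotted lines mark 2-fold. Red points were called higher (5722), blue points lower (4552) and grey points were not called (4316); Spp1 is the largest rise on this scale and among the most abundant genes.

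The label of origin speaks of adipocytes and the design text of preadipocytes. The markers of mature adipocytes were at or near 0 for the most part. Lep, Retn, Cfd and Pck1 were listed at 0 in all 8 libraries, and 10 of the 16 markers, among them Adipoq and Plin1, stayed below 0.1 RPKM in every library for their representative RefSeq entry, the one with the highest mean. Summed over such entries, which are per length, the 16 adipocyte markers came to 15.8 to 17.0 RPKM in controls and 10.3 to 11.6 RPKM with Fgf8b. The 15 mesenchymal preadipocyte markers came to 7477 to 7698 RPKM and 5341 to 5506 RPKM. None of those 15 was filtered out.

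Spp1, osteopontin, an integrin-binding secreted phosphoprotein, led the rises on this scale (with a pseudocount of 0.1 Mcpt8 rose more, by 6.90). It stood at 955, 1057, 1025 and 1093 summed RPKM in the controls and at 94530, 101340, 100210 and 98347 with Fgf8b, a change of 6.58 (SE 0.0364). Its share of the summed representative RPKM of all genes went from 0.0260 to 0.0292% in controls to 2.38 to 2.57% with Fgf8b, where it was the most abundant gene in all 4 libraries. Crabp1, a cytosolic binding protein of retinoic acid named here because it entered the 10 most abundant genes, went from 1106, 1161, 1081 and 1160 to 7979, 7708, 7786 and 7779 summed RPKM. Stra6, a membrane receptor that takes up retinol from its carrier, went from 2.15, 1.01, 0 and 0 to 15.7, 24.8, 15.1 and 25.004, the most scattered of the 20 largest rises (SE 0.539, limma adjusted p = 8.25e-05).

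Several of the largest rises began from control levels near 1 summed RPKM or below. Mcpt8, a granule protease known from basophils, stood at 0.151 to 0.597 summed RPKM in controls and at 59.0, 62.9, 60.0 and 59.8 with Fgf8b. Of 17 leukocyte markers 4 were tested, 2 called higher and 2 lower, beside 39.2% and 31.2% of all genes. In every library 11 of them, among them Ptprc, the common leukocyte antigen, stayed below 0.1 RPKM. The summed representative RPKM of the 17 was 5.50 to 6.27 in controls and 7.06 to 7.70 with Fgf8b, of which Cd14 alone made up 61.5%. Group means of Cd14 went from 3.01 to 5.12 and of Cd68 from 0.913 to 1.61, the 2 called higher. Lyz2 went from 1.22 to 0.0919 and Csf1r from 0.606 to 0.289, the 2 called lower. Add2, a cytoskeletal protein of the spectrin network, went from 0.569 to 0.786 to 51.4, 54.0, 56.3 and 56.2. Prkcb, a protein kinase C activated by calcium and diacylglycerol, rose from 0.577 to 1.45 to 45.6, 51.0, 46.3 and 56.3. Sema7a, a membrane-anchored semaphorin that binds integrins, went from 9.35, 7.497, 7.69 and 8.34 to 224, 281, 268 and 284 summed RPKM. Slc14a1, a urea transporter, rose from 15.4 to 20.6 to 430 to 528. The groups did not overlap in any of these genes, which were picked for large changes, nor in 64.6% of all genes tested. Where controls were this low the size of the change depends on the pseudocount: with 0.1 and with 1 in place of 0.5, Mcpt8 changed by 6.90 and 5.42, Add2 by 6.12 and 5.04, and Prkcb by 5.58 and 4.69, each still called. On the RefSeq entry with the highest mean alone, Add2 changed by 3.85 and Prkcb by 3.71.

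Arhgap20, a GTPase-activating protein, was among the largest falls. It went from 179, 158, 171 and 161 to 1.81, 1.51, 1.498 and 1.31 summed RPKM, a change of -6.37 (SE 0.0801, limma adjusted p = 2.6e-15). Col14a1, a collagen on the surface of fibrils, went from 220, 211, 215 and 199 to 2.11, 2.94, 2.41 and 2.17. On the RefSeq entry with the highest mean alone these changes were smaller, -5.04 for Arhgap20 and -5.24 for Col14a1. Tnmd, tenomodulin, a membrane protein of tendon and of fat precursors, fell from 49.4 to 52.0 to 0.787 to 1.09 summed RPKM. Scg2, a secretory granule protein, fell from 20.7 to 24.3 to 0.102 to 0.388. Il1rn, the secreted antagonist of the interleukin-1 receptor, went from 434, 476, 478 and 494 to 13.3, 20.4, 13.5 and 13.7, with library 4 above the other Fgf8b libraries and far below every control. Il33, a cytokine of the interleukin-1 family, moved the other way, from 6.13 to 10.4 to 120 to 161 summed RPKM.

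**Figure D2:**
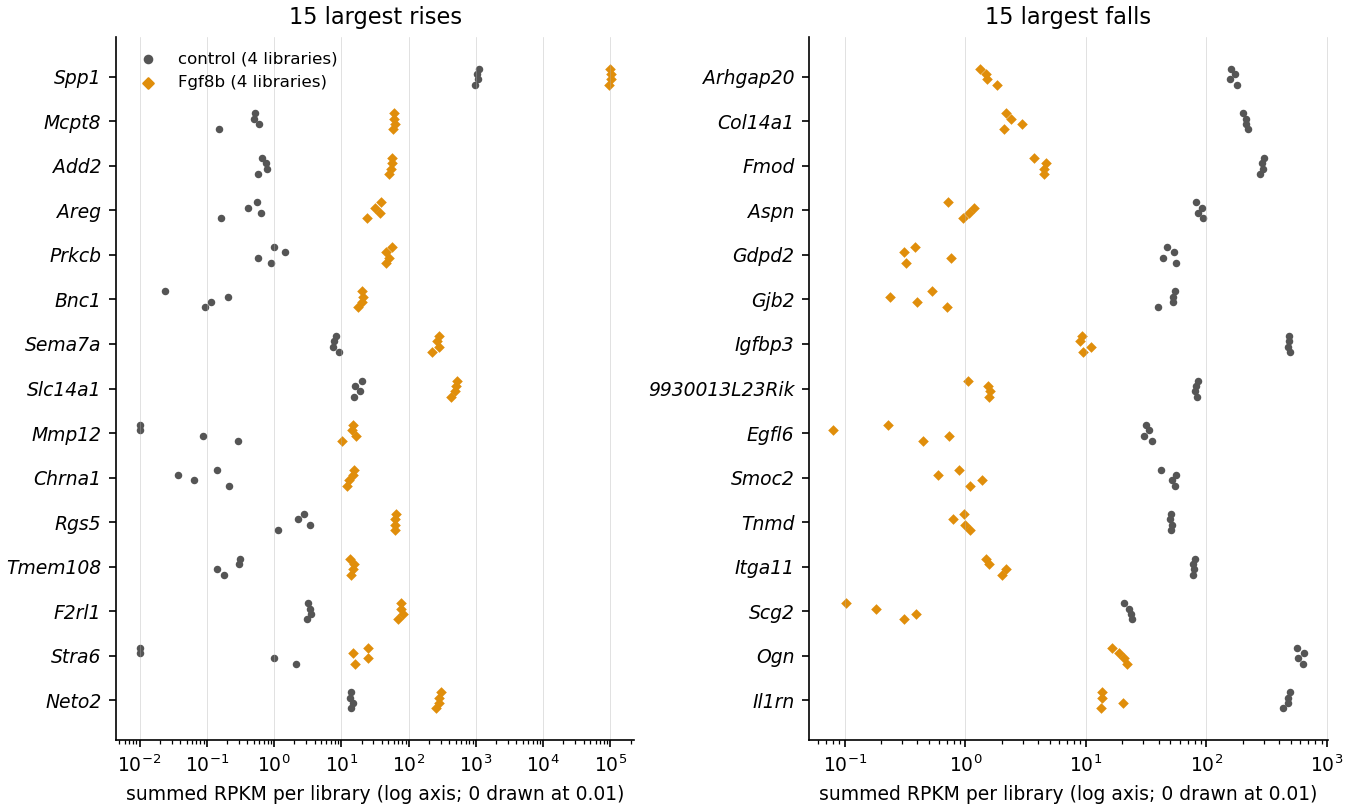
Summed RPKM in each of the 8 libraries, on log axes with a value of 0 drawn at 0.01, for the 15 largest rises (left) and the 15 largest falls (right) of genes whose mean reached 5 summed RPKM. Grey circles are controls and orange diamonds Fgf8b libraries. The genes were picked for large changes, and the 2 groups stand apart in each, as in 64.6% of all genes tested. The controls of Stra6 lie from 0 to 2.15.

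The relay from receptor to ERK lay near the share of all genes. Of 34 members tested, 17 were called higher and 11 lower, beside 39.2% and 31.2% of all genes. By 2-fold or more 2 rose and 1 fell, 8.82% of the list beside 11.9% of all genes, and the median was 0.09. The FGF receptor gene Fgfr1 was at 1236, 1279, 1283 and 1251 summed RPKM in controls and at 1245, 1315, 1292 and 1277 with Fgf8b, and the groups overlapped. Fgfr2, another of the receptors, was the member that fell at least 2-fold, from 165, 163, 153 and 175 to 31.7, 40.0, 35.7 and 36.0 (-2.18, SE 0.0638). Rasa1, which switches RAS off, went up from 182 to 199 to 463 to 562 summed RPKM. Map2k1, which encodes MEK1, the kinase just above ERK, rose 1.83-fold, from 200 to 206 to 365 to 380. The other rise past 2-fold, Rps6ka2, shares 41.9% of its sequence words of 31 bases with other genes, so its own value is uncertain.

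Feedback inhibitors and early targets of ERK changed by larger folds. Of 29 members, all of which passed the filter on low values, 22 were called higher and 5 lower, beside 39.2% and 31.2% of all genes. At least 2-fold, 19 rose and 3 fell, where 4.5% and 7.42% of all genes did, and the list's median was 1.38. Etv4, an ETS factor induced by ERK, went from 57.4, 51.4, 59.2 and 52.1 to 353, 381, 388 and 370 summed RPKM. Errfi1, which inhibits the EGF receptor, went from 319 to 334 to 1233 to 1327. The 5 members that fell were named after their values were seen. Spry1, a Sprouty inhibitor of receptor signalling, fell from 113, 103, 113 and 103 to 42.0, 38.3, 37.0 and 36.9, while its relative Spry2 rose from 56.6 to 61.3 to 85.9 to 92.8. Egr1, an immediate early transcription factor, fell from 157 to 164 to 61.2 to 73.6 summed RPKM. Flrt3, a membrane partner of FGF receptors, changed by -1.44 (SE 0.123), Dusp1, a phosphatase of MAP kinases, by -0.75 (SE 0.0394) and Il17rd, a membrane inhibitor of FGF signalling, by -0.77 (SE 0.0779).

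A run of 3 adjacent tested genes, all ligands of the EGF receptor, was higher with Fgf8b. Areg, amphiregulin, went from 0.162, 0.642, 0.411 and 0.560 summed RPKM to 23.9, 37.1, 31.8 and 38.8. Ereg, epiregulin, rose from 1.34 to 1.89 to 9.10 to 11.4, and Btc, betacellulin, from 2.61 to 4.97 to 21.4 to 26.7. Each of the 4 Fgf8b values was above each control value in all 3 genes, and the groups did not overlap in 64.6% of all genes tested. The promoter of Areg held a single match to the cyclic AMP response element. It is shown as the 250 bases before the start in RefSeq's table for GRCm38.p6, chr5:91139349-91139598, plus strand, 5′ to 3′, with the match in capitals, and the table has no entry for Ereg.
Areg: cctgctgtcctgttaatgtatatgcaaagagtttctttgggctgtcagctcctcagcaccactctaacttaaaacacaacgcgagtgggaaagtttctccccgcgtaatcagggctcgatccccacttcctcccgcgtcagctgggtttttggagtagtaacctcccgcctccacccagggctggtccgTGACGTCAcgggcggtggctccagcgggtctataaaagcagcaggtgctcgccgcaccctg

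Of 30 genes that build and trim heparan sulfate, the FGF co-receptor, 29 were tested, and 8 were called higher and 17 lower, beside 39.2% and 31.2% of all genes. At least 2-fold, 2 rose and 6 fell, beside 4.5% and 7.42%, and the median was -0.22. Sulf2, an extracellular sulfatase that removes 6-O sulfate groups from the chains, fell from 592, 591, 584 and 593 to 67.8, 86.1, 72.8 and 74.0 summed RPKM (-2.97, SE 0.0563). Its relative Sulf1 went from 224 to 243 to 171 to 182, a 1.33-fold fall. Among the core proteins Gpc3, a glypican, fell from 19.3 to 22.5 to 1.91 to 2.87, and Gpc6 from 383 to 394 to 113 to 125. Gpc1, the glypican that moved the other way, went from 109, 123, 116 and 122 to 244, 262, 243 and 255 summed RPKM. Of the enzymes that add sulfate, 3-O-sulfotransferases fell: Hs3st3b1 went from 10.6 to 12.95 to 2.43 to 3.09, and Hs3st3a1, which shares 44.5% of its sequence words with other genes, from 3.59 to 4.91 to 0.536 to 0.855. Hs3st1, also lower, was scattered (2.05 to 3.99 against 0.122 to 1.18). Ndst3, an N-deacetylase and N-sulfotransferase, rose from 1.87 to 2.57 to 11.5 to 12.4.

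Of 40 secreted growth factors, cytokines and hormones tested, 19 were called higher and 15 lower, not far from the 39.2% and 31.2% of all genes. Past 2-fold were 7 and 8, beside 4.5% and 7.42% of all genes. Ptn, pleiotrophin, a heparin-binding growth factor, fell from 4674, 4712, 4758 and 4328 to 264, 233, 215 and 203 summed RPKM. Gdf10, a BMP-related factor, fell from 156 to 174 to 29.5 to 33.9, and Nrg1, neuregulin, a ligand of ERBB receptors, from 19.4 to 20.4 to 3.61 to 4.15. Tnfrsf11b, osteoprotegerin, the decoy receptor of RANK ligand, rose from 1.96, 2.03, 2.23 and 2.56 to 22.3, 27.9, 28.5 and 28.4. Of 27 guidance molecules and ephrin genes tested, 17 were called lower and 7 higher, where 31.2% and 39.2% of all genes were, and their median was -0.59. Epha4, an ephrin receptor, went from 11.1 to 11.8 to 0.727 to 1.11 summed RPKM, and Unc5c, a netrin receptor, from 52.5 to 57.6 to 8.81 to 11.6. Rgmb, a BMP co-receptor, rose, from 60.4 to 63.1 to 269 to 290.

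Of 46 G-protein coupled receptors tested, 16 were called higher and 24 lower, beside 39.2% and 31.2% of all genes. At least 2-fold, 8 rose and 14 fell, beside 4.5% and 7.42%. F2rl1, a receptor cleaved by trypsin-like proteases, rose from 3.08, 3.48, 3.44 and 3.17 to 69.6, 82.8, 77.9 and 75.7 summed RPKM. Bdkrb2, the constitutive bradykinin receptor, went from 0.182 to 0.355 to 11.7 to 12.97. Its neighbour Bdkrb1, the inducible one, was listed at 0 in 3 controls and at 0.134 in the other, and at 1.67, 1.52, 1.52 and 0.936 with Fgf8b. Lgr5, the R-spondin receptor of stem cells, fell from 14.6, 20.3, 19.7 and 22.9 to 0.904, 0.463, 0.122 and 0.175. Rspo2, which encodes R-spondin 2, a ligand of such receptors, fell from 43.5 to 47.1 to 1.27 to 2.23 summed RPKM.

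Of 36 ion channel and pump genes tested, 7 were called higher and 21 lower, beside 39.2% and 31.2% of all genes, and their median was -0.34. Kcne4, a regulatory subunit of voltage-gated potassium channels, fell from 173, 162, 174 and 163 to 6.75, 6.70, 6.77 and 7.13 summed RPKM. Kcnn4, the intermediate-conductance potassium channel opened by calcium, rose from 1.53, 3.34, 3.28 and 2.55 to 35.4, 38.4, 35.1 and 33.9. Kcnma1, the large-conductance channel opened by calcium and voltage, fell from 2.04 to 5.26 to 0.140 to 1.03. Chrna1, the acetylcholine receptor subunit of muscle, is not on that list and rose from 0.0375 to 0.214 to 12.2, 12.8, 15.1 and 15.6 summed RPKM. Of 13 skeletal muscle markers, Chrna1 among them, 6 were tested, 3 called higher and 1 lower, and their summed representative RPKM was 6.59 to 9.13 in controls and 6.37 to 7.59 with Fgf8b. Myod1, Myog, Pax7, Ckm and Myh4 were listed at 0 in all 8 libraries. Among 37 solute carriers tested, 14 were called higher and 16 lower, beside 39.2% and 31.2% of all genes. Among the falls were Slc1a3, a glutamate transporter (69.3 to 79.9 against 6.87 to 8.46), Slc40a1, the iron exporter ferroportin (28.5 to 34.5 against 4.46 to 6.87), and Slc7a2, a cationic amino acid transporter (111 to 116 against 25.02 to 30.96).

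Integrins are the receptors that tie cells to matrix. Of 18 tested, 9 were called higher and 5 lower, and 5 rose and 4 fell at least 2-fold, beside 4.5% and 7.42% of all genes. Itga11, a collagen-binding subunit, fell from 77.8, 79.4, 77.8 and 79.7 to 1.997, 2.17, 1.56 and 1.49 summed RPKM. Itga8, a subunit that binds RGD-containing matrix proteins, fell from 39.2 to 50.7 to 6.43 to 7.87. Itga6, a laminin-binding subunit, rose from 29.9, 34.1, 33.9 and 33.7 to 240, 266, 263 and 262, and Itga2, another collagen-binding subunit, from 0.323 to 0.645 to 4.61 to 5.401. Enzymes that process collagen gave 10 rises and 18 falls of 31, beside 39.2% and 31.2% of all genes. Lox, which crosslinks collagen and elastin, fell from 6487 to 6937 to 1352 to 1437 summed RPKM, and Adamts2, which trims the procollagen end, from 415 to 430 to 94.8 to 106. Adamts14, a protease of the same kind, went up from 16.7 to 18.03 to 59.1 to 62.9.

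Several small leucine-rich proteoglycans, which coat collagen fibrils, lie in runs of adjacent genes and were named for those runs after their values were seen. The adjacent tested genes Ecm2, Aspn, Omd and Ogn all fell at least 2-fold. Aspn, asporin, went from 92.7, 85.2, 91.3 and 81.3 to 0.963, 1.08, 1.18 and 0.720 summed RPKM, and Ogn, osteoglycin, from 636, 575, 643 and 565 to 21.8, 20.6, 18.7 and 16.4. Omd, osteomodulin, went from 9.16 to 13.3 to 0.595 to 1.35 and Ecm2 from 5.62 to 8.09 to 0.788 to 1.40. Another run held Optc, Prelp and Fmod, flanked by Atp2b4 and Btg2, and all 5 fell. Fmod, fibromodulin, fell from 278, 295, 289 and 297 to 4.49, 4.50, 4.64 and 3.72, and Prelp from 105 to 110 to 2.88 to 4.18. Lum, lumican, and Dcn, decorin, of the same family, were higher: Lum went from 55.3, 45.1, 50.8 and 43.8 to 236, 266, 253 and 262 summed RPKM, and Dcn changed by 1.06. In all, 31 runs of at least 3 adjacent tested genes, among 12895 genes placed, changed at least 2-fold in 1 direction. With 4.5% of all genes higher and 7.42% lower by that much, some runs would arise without clustering. How many was not computed, so the count does not show that changed genes cluster. Another of them was a row of lipid transporters of the ABCA family, Abca8b, Abca8a, Abca9 and Abca6 with Fam20a, in which Abca9 fell most (-3.09, SE 0.0647).

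Matrix metalloproteinases, enzymes that cut matrix proteins, changed on both sides. The family, taken as all tested genes whose symbol is Mmp and a number, had 18 members. Of these 6 were called higher and 10 lower, beside 39.2% and 31.2% of all genes. Of the 6 that rose, 5 were Mmp13, Mmp12, Mmp1b, Mmp3 and Mmp10 on chromosome 9, adjacent among the genes tested. Mmp3, stromelysin-1, went from 41.5, 35.9, 35.8 and 37.5 to 347, 419, 399 and 409 summed RPKM. Mmp12, macrophage elastase, was listed at 0 in 2 controls and at 0.291 and 0.0879 in the others, and stood at 10.2, 16.2, 14.5 and 14.9 with Fgf8b. Mmp10, stromelysin-2, went from 0 to 0.411 to 7.92, 12.3, 12.5 and 12.8, with library 2 below the other Fgf8b libraries. Mmp13, a collagenase, rose from 0.975 to 1.75 to 3.63 to 5.73 summed RPKM, and Mmp1b was at 0 to 0.146 and 0.604 to 0.853, near the limit of what passed the filter. With pseudocounts of 0.1 and 1, Mmp12 changed by 6.40 and 3.76, Mmp10 by 5.24 and 3.29 and Mmp1b by 2.18 and 0.65, and on the RefSeq entry with the highest mean alone Mmp12 changed by 1.34, all called. The next tested member of the family along the chromosome, Mmp27, fell from 1.15 to 1.32 to 0.298 to 0.844. Elsewhere Mmp14, a membrane-bound activator of other metalloproteinases, fell from 1523 to 1534 to 667 to 716, Mmp2, a gelatinase, from 780 to 835 to 390 to 422, and Mmp19 was the sixth that rose (1.76-fold).

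**Figure D3:**
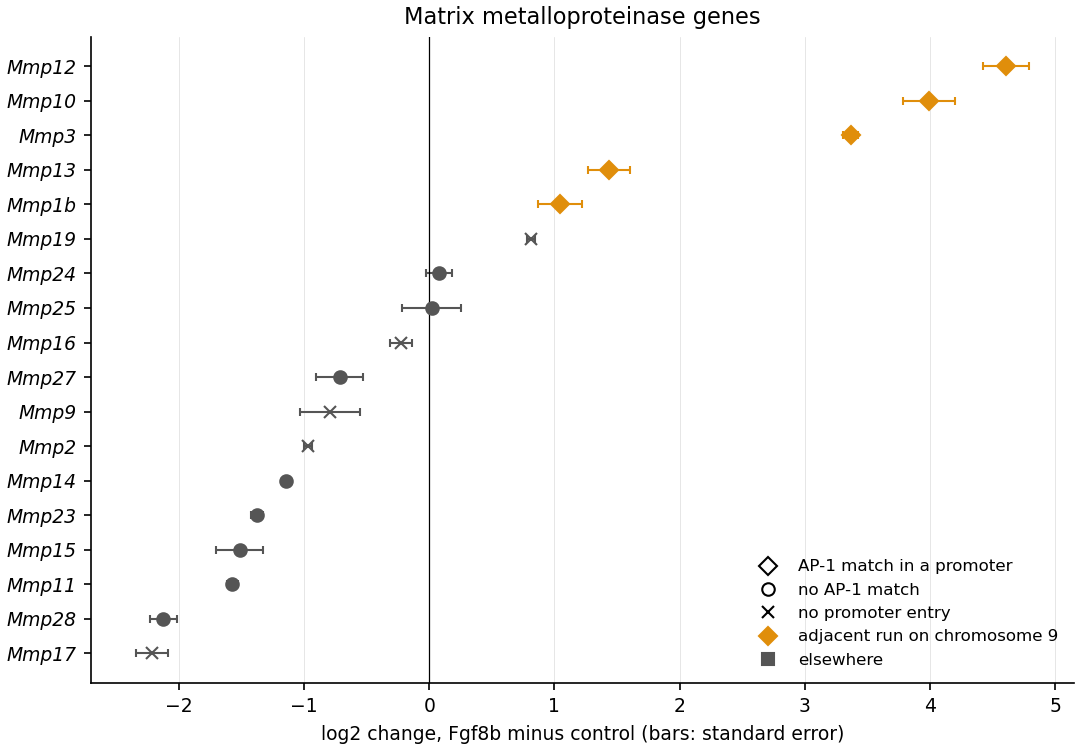
Log2 change, Fgf8b minus control, with its standard error for the 18 tested matrix metalloproteinase genes. Orange symbols are the 5 adjacent tested genes on chromosome 9 and grey symbols the rest. Diamonds have an AP-1 match in a promoter, circles have an entry without a match and crosses have no entry. On this scale the 5 orange genes are the 5 largest rises, and all 5 are diamonds.

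All 5 of the adjacent genes held a match to the AP-1 site, TGACTCA or its reverse complement TGAGTCA, in the 250 bases before a start. They are shown because the match recurs next to 5 genes that rose together, with the match in capitals, 5′ to 3′ on the gene's own strand, from RefSeq's table for GRCm38.p6. The windows were chr9:7272264-7272513 for Mmp13, chr9:7347124-7347373 for Mmp12, chr9:7388027-7388276 on the minus strand for Mmp1b, chr9:7445572-7445821 for Mmp3 and chr9:7502092-7502341 for Mmp10. F3, tissue factor, is set beside them because it held a match and fell, chr3:121723287-121723536 on the plus strand, as are the others but Mmp1b. Mmp12 has 2 promoters in the table, and the match stood in the 1 shown.
Mmp13: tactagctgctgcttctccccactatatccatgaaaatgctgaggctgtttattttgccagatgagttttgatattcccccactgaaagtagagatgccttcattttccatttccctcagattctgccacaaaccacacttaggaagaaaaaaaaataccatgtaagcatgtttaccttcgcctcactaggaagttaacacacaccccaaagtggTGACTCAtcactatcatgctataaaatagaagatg
Mmp12: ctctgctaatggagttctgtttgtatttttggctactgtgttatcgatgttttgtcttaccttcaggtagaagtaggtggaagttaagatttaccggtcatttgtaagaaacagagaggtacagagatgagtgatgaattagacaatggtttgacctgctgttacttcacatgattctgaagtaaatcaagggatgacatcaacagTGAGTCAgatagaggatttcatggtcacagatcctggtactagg
Mmp1b: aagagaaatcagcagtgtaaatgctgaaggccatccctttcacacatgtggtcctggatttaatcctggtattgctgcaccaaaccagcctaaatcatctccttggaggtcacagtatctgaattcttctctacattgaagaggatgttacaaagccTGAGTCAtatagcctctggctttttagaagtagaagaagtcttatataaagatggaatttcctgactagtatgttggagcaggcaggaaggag
Mmp3: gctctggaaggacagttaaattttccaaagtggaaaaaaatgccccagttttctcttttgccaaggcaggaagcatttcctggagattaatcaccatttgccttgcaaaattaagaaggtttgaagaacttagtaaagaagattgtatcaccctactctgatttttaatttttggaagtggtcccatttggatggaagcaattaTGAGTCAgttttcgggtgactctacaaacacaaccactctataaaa
Mmp10: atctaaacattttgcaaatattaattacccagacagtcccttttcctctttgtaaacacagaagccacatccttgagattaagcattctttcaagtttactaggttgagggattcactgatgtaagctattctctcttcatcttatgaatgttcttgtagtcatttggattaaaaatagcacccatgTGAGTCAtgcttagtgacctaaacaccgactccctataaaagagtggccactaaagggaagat
F3: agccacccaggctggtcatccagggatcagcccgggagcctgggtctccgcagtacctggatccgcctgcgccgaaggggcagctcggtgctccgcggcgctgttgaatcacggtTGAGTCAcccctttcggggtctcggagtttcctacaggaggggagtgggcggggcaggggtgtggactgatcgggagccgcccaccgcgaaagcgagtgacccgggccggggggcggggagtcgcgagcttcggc

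In the metalloproteinase promoters the match began 35 bases before the start in Mmp13, 44 in Mmp12, 46 in Mmp3, 63 in Mmp10 and 93 in Mmp1b, and 135 bases before it in F3, whose own level went from 1634, 1573, 1582 and 1577 to 90.4, 85.9, 88.6 and 82.0 summed RPKM. Of the other 13 tested metalloproteinases, none of the 8 with an entry held a match. Because Mmp12, Mmp10 and Mmp1b passed the filter only through their Fgf8b levels, this contrast depends in part on the filter. Over all genes tested, 3.35% of 14027 promoters held an AP-1 match on either strand. The share was 11.6% (20 of 173) for genes at least 4-fold higher, 5.17% (15 of 290) for genes at least 4-fold lower and 2.72% for genes not called. Mmp12, Mmp3 and Mmp10 were at least 4-fold higher and account for part of the first share, and neighbours are not independent. Mmp13 and Mmp1b, with log2 changes of 1.44 and 1.04, fell short of 4-fold and are not in it. ETS matches, CCGGAAG on either strand, went the other way, with 2.89% of the promoters of genes at least 4-fold higher and 2.76% of those at least 4-fold lower against 12.7% of all. Those promoters were also poorer in GC, with medians of 54.8% and 56.6% against 59.6%, and in CpG, with 7 and 7 against 15 per promoter, and the part of base composition in these shares was not tested. A TATA box, TATAAA between 40 and 16 bases before the start, stood in 5.78%, 2.41% and 1.08%. The cyclic AMP element TGACGTCA was found in 1.73%, 1.03% and 2.47%.

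**Figure D4:**
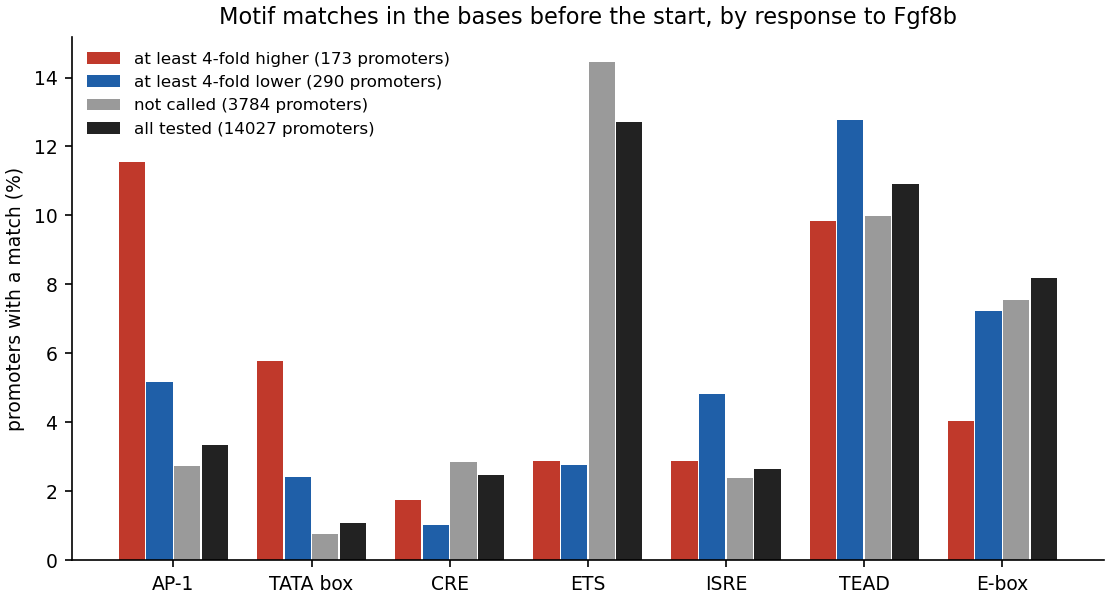
Share of promoters, the 250 bases before a start, with a match to each of 7 motifs, for genes at least 4-fold higher (173 promoters), at least 4-fold lower (290), not called (3784) and all tested (14027). AP-1 and TATA matches stand highest in the first group (11.6% and 5.78%), and ETS matches are lower in both changed groups (2.89% and 2.76%) than in all (12.7%).

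Transcription factors of mesenchymal and skeletal development gave 14 rises and 20 falls of 39 tested, beside 39.2% and 31.2% of all genes. Past 2-fold were 1 and 7, beside 4.5% and 7.42% of all genes. Prrx2, a homeobox gene of limb mesenchyme, fell from 190 to 200 to 39.7 to 50.3 summed RPKM, while its relative Prrx1, named for contrast, was not called (0.01). Foxf1 fell from 6.78 to 8.27 to 1.80 to 2.29. Sp7, osterix, a regulator of bone-forming cells, was the member that rose at least 2-fold, from 0.211, 0.567, 0.703 and 0.695 to 3.41, 3.70, 3.52 and 2.97, still a low level. Bnc1, a zinc finger factor also known as a mesothelial marker, rose from 0.0237 to 0.203 to 17.6, 20.4, 21.2 and 20.4 summed RPKM. Nuclear receptors were called lower in 13 and higher in 5 of 22, beside 31.2% and 39.2% of all genes. The receptor of progesterone, Pgr, went from 8.90 to 11.1 to 0.827 to 2.13 summed RPKM. In the NR4A family Nr4a2 rose from 24.0 to 26.2 to 91.2 to 99.8 while Nr4a3 fell from 2.32 to 2.86 to 0.281 to 0.517.

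Most targets of the tumour suppressor p53 were lower. Of 23 tested, 20 were called lower and 2 higher, beside 31.2% and 39.2% of all genes. At least 2-fold, 7 fell, beside 7.42% of all genes, and the median was -0.74. Trp53inp1, which promotes cell death under stress, went from 182, 173, 192 and 169 to 36.5, 33.6, 36.2 and 32.0 summed RPKM. Cdkn1a, the cyclin-dependent kinase inhibitor p21, fell from 769 to 821 to 339 to 386, and Eda2r, a receptor of the TNF family, from 63.5 to 72.8 to 16.8 to 20.1. The 2 that were higher were Plk3, a polo-like kinase (11.9 to 15.02 against 30.7 to 34.6), and Mdm2, the ligase that degrades p53, whose change was 1.06-fold. With median-of-ratios scaling Mdm2 was not called (limma adjusted p = 0.307).

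Of 37 lysosomal and autophagy genes tested, 31 were called lower and 4 higher, beside 31.2% and 39.2% of all genes. Past 2-fold down were 10, beside 7.42% of all genes, and the median was -0.63. Gaa, the lysosomal glucosidase, went from 1530, 1497, 1491 and 1510 to 577, 603, 573 and 573 summed RPKM. Ctsk, cathepsin K, a protease that degrades collagen, fell from 261 to 271 to 91.1 to 99.4, and Ctsf, cathepsin F, from 41.5 to 45.8 to 8.28 to 9.98. Against them Ctsl, cathepsin L, rose from 3989, 3889, 3932 and 3851 to 10034, 10766, 10701 and 10586, although 29.9% of its sequence words occur in other genes. Ctsb, cathepsin B, rose 1.46-fold.

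Of 32 genes for nucleotides and one-carbon units, all tested, 30 were called higher and 1 lower, beside 39.2% and 31.2% of all genes. Past 2-fold up were 4, beside 4.5% of all genes, and the median was 0.46. Shmt2, the mitochondrial serine hydroxymethyltransferase, went from 327, 341, 336 and 352 to 754, 701, 703 and 691 summed RPKM. Mthfd1l, which makes formate in mitochondria, rose from 79.9 to 94.5 to 180 to 198, and Tk1, thymidine kinase, from 152 to 166 to 305 to 330. The exception, Prps2, fell 1.17-fold. Among chaperones 20 of 30 were called higher and 6 lower, none of them by 2-fold, with Hsp90b1, the HSP90 of the endoplasmic reticulum, at 3895 to 4120 and 6530 to 7003.

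Of 29 antioxidant genes of the NRF2 and glutathione list, 16 were called higher and 12 lower, beside 39.2% and 31.2% of all genes. Past 2-fold, 1 rose and 6 fell, beside 4.5% and 7.42%. Gpx3, a secreted glutathione peroxidase, fell from 306, 313, 307 and 334 to 51.5, 45.4, 46.3 and 51.3 summed RPKM, Sod3, the extracellular superoxide dismutase, from 87.9 to 92.8 to 16.9 to 18.998, and Gstt1, a glutathione transferase, from 69.9 to 74.5 to 12.2 to 16.6. Targets of YAP, a coactivator that responds to cell shape, gave 8 rises and 10 falls of 20: Ankrd1 went from 15.7 to 20.9 to 77.4 to 85.9 while Igfbp3, which binds IGF hormones, went from 477 to 493 to 8.95 to 11.1. Glucocorticoid targets gave 6 and 7 of 15, with Angptl4, an inhibitor of lipoprotein lipase, rising from 31.8 to 36.9 to 293 to 387 and Pdk4, which restrains pyruvate oxidation, falling from 12.7 to 15.5 to 3.38 to 4.16 summed RPKM. DNA methylation and Polycomb genes gave 10 and 13 of 26, none past 2-fold, led by Cbx7 (8.91 to 9.84 against 4.63 to 5.47).

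**Figure D5:**
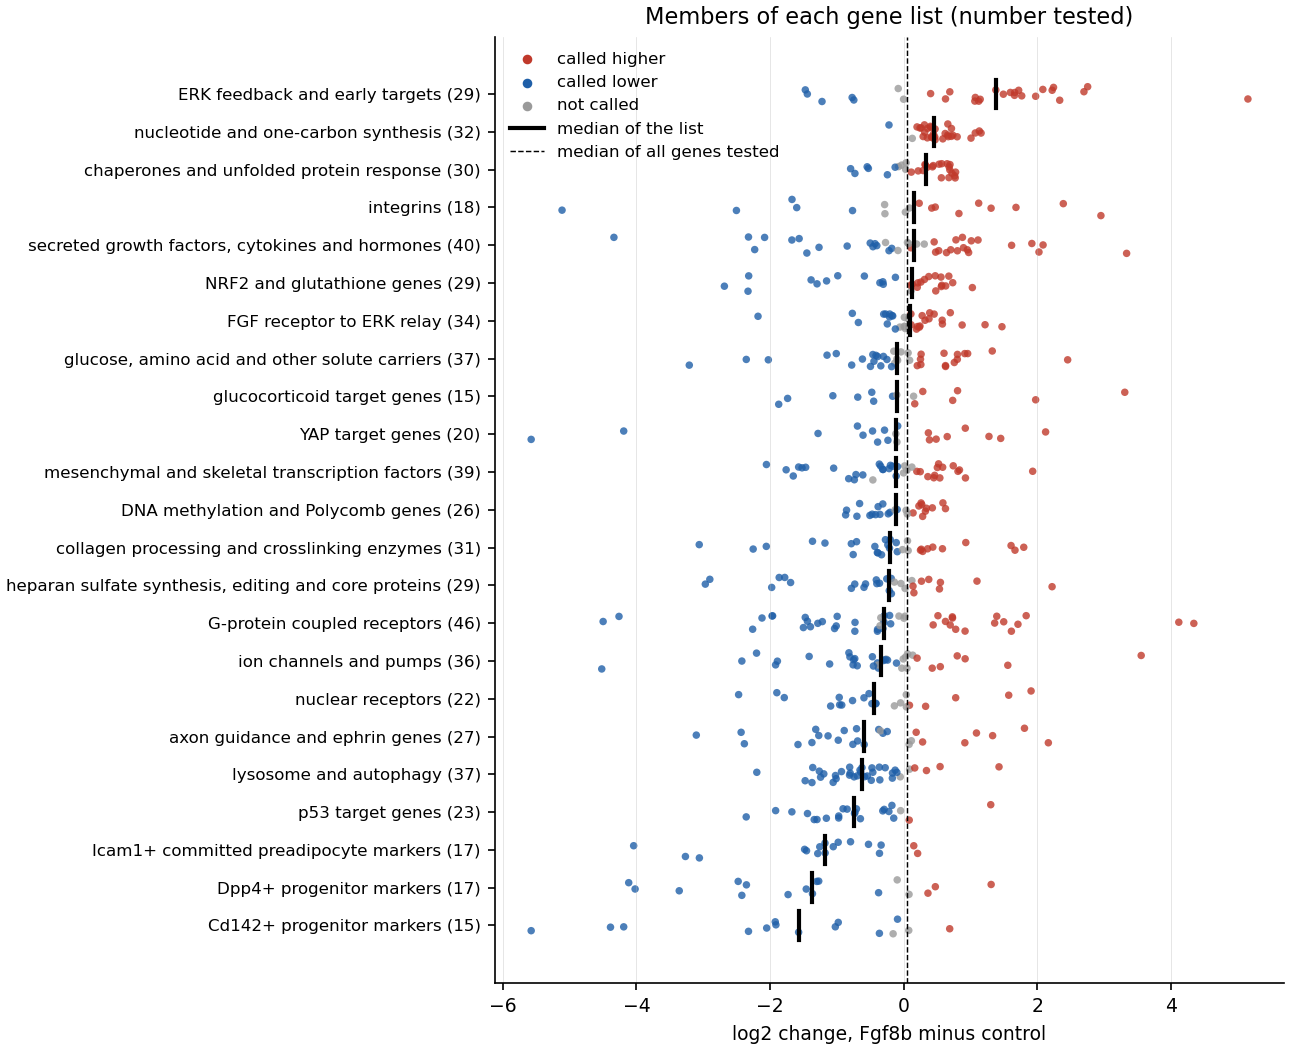
Log2 change, Fgf8b minus control, of each tested member of 23 gene lists, in order of the list's median (black bar); red members were called higher, blue lower and grey were not called, and the dashed line is the median of all genes tested (0.04). ERK feedback genes stand at one end (median 1.38) and the 3 lists of progenitor markers at the other (-1.18, -1.37 and -1.57).

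Most markers of 3 precursor subtypes of inguinal fat were lower with Fgf8b, beside 31.2% of all genes. The counts of at least 2-fold falls below stand beside 7.42% of all genes. In bulk RNA, fewer cells of a subtype and less RNA per cell cannot be told apart. Of 17 tested markers of the Dpp4+ interstitial progenitors, 12 were called lower and 3 higher, and 11 fell at least 2-fold. Of 17 markers of the Icam1+ committed preadipocytes, 15 were called lower and 2 higher, 10 of them at least 2-fold down. Of 15 markers of the Cd142+ cells, named for tissue factor and known as inhibitors of adipogenesis, 12 were called lower and 1 higher, and 9 fell at least 2-fold. The medians were -1.37, -1.18 and -1.57.

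Dpp4 itself, a surface peptidase, stood at 4.60, 4.22, 4.62 and 3.87 summed RPKM in controls and at 0.252, 0.967, 0.178 and 0.554 with Fgf8b. Sema3c, a secreted semaphorin of the same cells, went from 245, 236, 251 and 240 to 13.1, 13.1, 14.3 and 13.7. Pcsk6, a proprotein convertase, fell from 18.5 to 22.8 to 0.502 to 1.39, and the exception past 2-fold was Creb5, a bZIP transcription factor, up from 3.01 to 4.27 to 9.58 to 10.1. For the committed cells Icam1, the adhesion molecule, fell from 25.7 to 31.3 to 13.1 to 16.2 summed RPKM. Ggt5, a gamma-glutamyltransferase, went from 53.4, 51.8, 50.8 and 50.03 to 2.69, 3.21, 2.61 and 2.20, Apoe, the lipid carrier, from 428 to 552 to 46.2 to 57.0, and Dlk1, an inhibitor of fat cell differentiation also called Pref-1, from 864 to 1067 to 325 to 359. Pparg, the nuclear receptor that drives adipogenesis, went from 9.10 to 9.56 to 3.92 to 4.88. The Cd142 gene is F3, given above, and Gdf10 and Rspo2, both described with their families, are markers of the same cells.

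Of the general markers of preadipocytes 8 of 15 were called higher and 7 lower, beside 39.2% and 31.2% of all genes. Past 2-fold were 4 and 6, beside 4.5% and 7.42% of all genes. Pdgfra, the PDGF receptor that marks fat precursors, was nearly level at 669, 666, 684 and 678 summed RPKM against 714, 715, 708 and 699, a 1.05-fold rise that was not called with median-of-ratios or upper-quartile scaling. Thy1, a surface glycoprotein of fibroblasts, rose from 399, 421, 420 and 450 to 1194, 1189, 1166 and 1150. Col1a1, the main chain of type I collagen, fell from 8062 to 8481 to 1874 to 1976.

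Other cell types that such cultures can hold were looked at through their markers. The counts called stand beside 39.2% higher and 31.2% lower of all genes. Of 14 endothelial markers 6 were tested, 2 called higher and 4 lower, with Pecam1, Vwf, Erg and Cldn5 below 0.1 RPKM in every library and a sum of 36.7 to 40.4 in controls and 22.9 to 25.9 with Fgf8b. Eng alone made up 51.2% of the endothelial sum. Tek, the angiopoietin receptor, was the leading fall, from 36.9 to 39.2 to 1.96 to 2.70 summed RPKM. Of 12 Schwann cell markers 7 were tested, 0 called higher and 6 lower, with Sox10, Cdh19 and Foxd3 below 0.1 RPKM in every library and sums of 175 to 182 and 90.8 to 94.3, of which Pmp22 alone made up 83.6%. Ngfr, the low-affinity neurotrophin receptor, fell from 8.50 to 9.63 to 0.135 to 0.400. Of 14 smooth muscle and pericyte markers 12 were tested, 2 called higher and 8 lower, with sums of 1026 to 1165 and 387 to 420 RPKM. Acta2 alone made up 54.3% of the smooth muscle and pericyte sum. Rgs5, a pericyte marker, was among the 2 that rose, from 1.16, 3.47, 2.25 and 2.78 to 61.7, 63.7, 62.8 and 64.1 summed RPKM. Of 14 epithelial markers 3 were tested, 2 called higher and 1 lower, with sums of 12.8 to 14.4 and 10.4 to 13.5 RPKM. Krt18, a keratin of simple epithelia, was called higher, from 0 to 0.291 to 2.04 to 2.31 summed RPKM. Krt19, which made up 92.8% of the epithelial sum, was the 1 called lower, from 42.4 to 47.3 to 30.6 to 37.7 summed RPKM. Of 9 mesothelial markers 3 were tested, 1 called higher, which is Bnc1, and 1 lower, with sums of 12.8 to 14.4 and 16.6 to 18.4 RPKM. The 1 lower is again Krt19, which is on both lists and made up 75.8% of the mesothelial sum. The part of these cell types in the results above was not tested.

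Single RefSeq entries, tested the same way, gave calls in 77.1% of 16931. Among 2830 genes with at least 2 tested RefSeq entries, 0 had 1 entry called at least 1.5-fold higher and another called at least 1.5-fold lower by limma, and the count was also 0 at an unadjusted p under 0.05. With no limit on the size of the change, 7 genes had entries called in both directions. Entries of a gene share reads, which limits what this can show: over 2021 genes with at least 2 entries of 5 RPKM or more, the median distance between the most different entries was 0.0044. Only 2 of these genes had entries at least 1 apart, named after their values were seen. Triobp, an actin-binding protein, had the entry NM_001039155 at 3.29, 3.07, 3.19 and 3.77 RPKM in controls and 13.7, 14.6, 13.5 and 13.2 RPKM with Fgf8b, while NM_001024716 went from 43.7, 44.1, 41.9 and 42.2 to 37.7, 38.8, 39.0 and 36.6 RPKM. Cxcl12, a chemokine of stromal cells, fell in both, by -0.92 (SE 0.0233) in NM_001012477 and by -1.95 (SE 0.0238) in NM_021704.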

How the data were processed

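Total RNA of mouse cells scraped into a phenol reagent was column-purified and made into libraries with a TruSeq kit, per the labels' protocols. CASAVA and bcl2fastq appear in the submitters' processing notes; the aligner, the genome build and the strand setting of the counting are not stated there or in the labels (not given in the sources used here). The authors deposited RPKM per entry, 168326 entries with decimal commas, of which 14.1% carry no symbol. Entries under 299 repeated accessions (808) were left out and the rest summed to 28908 genes. Without strand, a gene and an antisense partner cannot be told apart.

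Genes at or above 0.5 RPKM in at least 4 of the 8 libraries were tested with limma 3.58.1 (R 4.3.3; trend and robust moderation) on log2(summed RPKM + 0.5), 4 against 4, with Benjamini-Hochberg adjustment over all genes tested. Depth was recovered from the smallest steps of the values, 95.6% to 95.7% of values up to 50 reads lying within 0.1 of a whole read, and was not used in the test. A gene near 0 in the controls could pass the filter through the 4 Fgf8b libraries alone, and the reverse. The script was tested on simulated data. Members and gene lists were chosen with earlier results of these data known. Named genes are the 20 largest changes each way with a mean of at least 5, up to 4 per list with a mean of at least 1, and fixed genes; others were chosen after their values were seen, and some items are not reported here. Promoters are the 250 bases before each start in RefSeq's GRCm38.p6 table, searched on both strands; sequence words of 31 bases come from GENCODE transcripts. Alternatives changed the pseudocount, filter, scaling, moderation, entries used and libraries. Tables and figures used Python 3.11.15, pandas 2.3.3, numpy 2.4.6 and matplotlib 3.10.9.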

Additional observations from a re-analysis of the deposited data

Results flagged for a closer look

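In 20 of 294 groups of 4 libraries, 1 library stood apart from the other 3 by Dixon's gap test, where chance gives about 5%. All values here are summed RPKM.

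Among the Fgf8b libraries, library 2 was apart in Mmp10 (7.92 against 12.3 to 12.8 in the other 3), Tnfrsf11b (22.3 against 27.9 to 28.5), Itga6 (240 against 262 to 266), Bdkrb2 (11.7 against 12.8 to 12.97), Il17rd (6.27 against 7.03 to 7.06) and Kcnma1 (1.03 against 0.140 to 0.222). In the first 4 of these genes, all of which rose, library 2 was the lowest with Fgf8b. Library 4 was the high one in Il1rn (20.4), Gaa (603) and Abca8a (3.09), all of which fell, and the low one in Tk1 (305), which rose. Library 8 stood apart in Fmod (3.72) and Prrx2 (39.7), where it was lowest, and in Kcne4 (7.13), where it was highest.

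Among controls, library 1 was apart in F3 (1634), Itga6 (29.9), Mmp19 (265) and Prps2 (72.6), and library 3 in Flrt3 (12.6), Il33 (6.13) and Bdkrb1 (0.134). In each of these 7 genes the control values still lay wholly on one side of the Fgf8b values, as in 64.6% of all genes tested.

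Of 2869 entries without a gene symbol tested by limma, 1296 were called, a smaller share than the 70.4% of all genes. At least 2-fold, 74 were higher and 84 lower, smaller shares than the 4.5% and 7.42% of all genes. The entry AK136433 went from 7.10, 7.44, 7.71 and 6.25 RPKM to 52.3, 53.6, 55.4 and 49.2, and AK132315 from 13.3, 12.9, 12.6 and 13.6 to 0.520, 0.539, 0.307 and 0.357.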

How the results depend on the processing

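All 97 recomputed counts over all genes stayed within 1.5 times the reported count. The number called ran from 9411 on 1 RefSeq entry per gene to 10666 with no filter, and from 9894 to 10111 with 1 library left out. Of single-gene values 3383 kept direction and call. The call was lost in 12, all of Mdm2, Pdgfra, Slc2a4 and Tnni2, gained in 2, of Prrx1 and Triobp, and the sign changed in 5, none of a gene called as reported. With median-of-ratios factors Fgfr1 changed by -0.02346 and Prrx1 by -0.03194, and with upper-quartile factors by -0.02245 and -0.03093. On the RefSeq entry with the highest mean alone Triobp changed by -0.18 (-0.1752). The cause was not tested, except that for Triobp the entries themselves differ. Of the list counts 1071 stayed within 1.5 times and 17 moved further. No paired analysis was run, because no label pairs the libraries and the 2 groups share no library number. Whether the cultures were paired is not known. In 71 of 201 single genes the highest and lowest fold over these alternatives were more than 1.5 times apart. Fold changes of genes near 0 in controls depend on the pseudocount, and 1 read on an entry of 2 kb is worth 0.0248 to 0.0320 RPKM.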

Other observations

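The following 2 genes were picked after their values were seen and stand for no group. Ifi27l2a, a mitochondrial protein induced by interferon, stood at 799, 703, 893 and 774 summed RPKM in controls and at 203, 153, 158 and 81.2 with Fgf8b (-2.48, SE 0.270). Bst2, tetherin, which holds budding viruses at the cell surface, went from 1960, 1904, 1852 and 1639 to 1211, 1012, 1222 and 668. Library 8, at 1 end of the second principal component, was the lowest of the Fgf8b libraries in both genes.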
